A study of Mus musculus with 7 samples.

Results

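The immediate early transcription factors described here are Fos, Fosb, Fosl1, Jun, Junb, Jund, Egr1, Atf3 and Nr4a1, with the phosphatase gene Dusp1, 10 genes in all out of 17083 genes tested. The genes were chosen by name among the array probes that are not controls. In the files 9 of the 10 carried their own symbol, and Jund, listed there as Jund1, was found through its transcript accession. The 10 genes had 11 probes, Junb having 2, and all 10 passed the filter on dim probes, which kept a probe if 3 or more of the 14 channels read it well above background. Fos and Jun were each printed as 10 spots per array, so their ratios could be read repeatedly on the same array.

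The samples were total RNA of dorsal skin from male HR-1 mice, a hairless strain, labelled as 5 weeks old. The GC-fed mice received an AIN-93G diet with glucosylceramide (GC), a sphingolipid that carries a sugar on ceramide, and the control-fed mice received that diet without GC. After SDS, 4 arrays each held 1 GC-fed and 1 control-fed sample taken at 14 days of diet from skin exposed to the detergent sodium dodecyl sulfate (SDS, 10%, 5 minutes a day, 2 treatments). Before SDS, 3 arrays each held 1 GC-fed and 1 control-fed sample taken at 12 days of diet from skin that had received no SDS.

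Immediate early genes are transcribed within minutes of a stimulus from factors already present in the cell, without new protein synthesis. Fos, Fosb and Fosl1 encode Fos proteins that pair with the Jun proteins of Jun, Junb and Jund to form the transcription factor AP-1. Atf3 is a stress-induced factor of the same leucine zipper class, Egr1 is a zinc finger factor, Nr4a1 is an orphan nuclear receptor, and Dusp1 removes phosphate from MAP kinases and so limits the signal that induces the group. In skin, AP-1 is known for its part in keratinocyte differentiation and in the response to injury.

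Between 48.5% and 62.8% of the spots were well above background on a channel, and no spot was saturated. All after-SDS arrays lay on 1 slide with its own scan, all before-SDS arrays on another, and the 2 states also differed in days of diet, so SDS, slide and time on diet cannot be told apart. The labels call the arrays biological replicates but do not say whether a sample was 1 animal or a pool. Suprabasal keratinocyte markers, the check of the tissue, had a mean level per sample of 13.57 to 14.89 on the log2 intensity scale in GC-fed skin after SDS, 13.33 to 14.44 in control-fed skin after SDS, 14.31 to 14.47 in GC-fed skin before SDS and 14.03 to 14.44 in control-fed skin before SDS. After-SDS array 4 stood apart: across genes, its diet ratios correlated with those of after-SDS arrays 1, 2 and 3 at r = -0.5, -0.62 and -0.3, while arrays 1 to 3 correlated with each other at 0.32 to 0.5. Of the before-SDS arrays, array 1 had correlations of -0.4 with array 2 and -0.18 with array 3. The GC-fed sample was in the green dye (Cy3) on before-SDS array 1 and after-SDS arrays 1 and 2, and in the red dye (Cy5) on the others. The direction of every ratio was kept as the dye labels give it, and results that rest on after-SDS array 4 are given with and without it.

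The first comparison asked how GC feeding altered the genes in SDS-treated skin. No member passed limma's test, and neither did any other gene (0 of 17083 called, 0%; 763 genes and no member had an unadjusted p under 0.05), but the members' ratios were far apart between arrays. GC-fed skin had less Atf3, Dusp1 and Fos than control-fed skin on arrays 2 and 3 and more on array 4. The diet ratio is log2 of the GC-fed over the control-fed signal on an array. Over the 10 members its median was 0.01, -0.6, -0.47 and 0.38 on arrays 1, 2, 3 and 4, with 6, 1, 0 and 7 members above 0. No member had all 4 ratios above 0 or all 4 below 0, as 3.37% and 4.62% of all genes did. In levels, the GC-fed and control-fed samples after SDS overlapped for every member, while 0.427% of all genes lay higher and 1.15% lower without overlap. Each SE below comes from a fit that shares the spread of a gene over all arrays, so it is not the spread of a single SDS state.

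Fos, the partner of Jun in the classical AP-1 dimer, had after-SDS diet ratios of 0.03, -1.56, -2.05 and 1.09 on arrays 1 to 4. On array 3 the control-fed sample thus held 4.15 times the Fos signal of the GC-fed sample. The SD of the Fos ratio over the 10 spots of an array lay between 0.016 and 0.073, a reading error within an array that does not include the spread between samples. In levels, Fos stood at 10.28, 9.07, 8.24 and 10.08 in the GC-fed samples of arrays 1 to 4, and at 10.25, 10.63, 10.29 and 8.99 in the control-fed samples. The groups overlapped, with the lowest level in the GC-fed sample of array 3 and the lowest control-fed level on array 4. The fitted diet effect was -0.62 (SE 0.51, limma adjusted p = 0.835; 95% interval -1.83 to 0.58).

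Atf3 had ratios of -0.7, -2.1, -1.71 and 1.38 on after-SDS arrays 1 to 4, below 0 on 3 of the 4. Its levels were 10.27, 9.39, 9.42 and 11.49 in GC-fed skin, against 10.96, 11.5, 11.13 and 10.1 in control-fed skin. Only array 4 put the GC-fed sample above its control-fed partner, and the fitted effect was -0.78 (SE 0.51, limma adjusted p = 0.835; 95% interval -1.99 to 0.43). In the authors' deposited table, the Atf3 log2 ratio was -1.07, -2.31, -1.83 and 1.4 on those arrays.

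Dusp1 had ratios of -0.11, -0.87, -1.96 and 0.29. Its levels were 11.76, 11.56, 10.53 and 11.77 in GC-fed skin, against 11.87, 12.44, 12.48 and 11.47 in control-fed skin, and the GC-fed sample of array 3 lay apart from the other GC-fed samples. The fitted effect was -0.66 (SE 0.33, limma adjusted p = 0.835).

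Jun varied less between arrays, with ratios of -0.37, -0.33, -0.34 and 0.28 and a spot SD of 0.018 to 0.032. Arrays 1 to 3 lay close together below 0, and array 4 had the opposite sign. The fitted Jun effect was -0.19 (SE 0.12, limma adjusted p = 0.835).

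Junb, which can oppose Jun in keratinocytes, had ratios of -0.21, -0.54, -0.03 and 0.61 on its brighter probe and -0.29, -0.65, 0.15 and 0.66 on the other. The probes put the arrays in the same order. Jund, the Jun protein most evenly present in resting cells, had 0.45, 0.02, -0.6 and -0.33, so its array 4 value was below 0 and its array 1 value above. Egr1 had 0.41, -0.66, -0.02 and 0.7, and Nr4a1 had 0.19, -1.05, -0.54 and -0.07. Fosb ratios lay between -0.4 and 0.46 and Fosl1 ratios between -0.3 and 0.01. Both were dim: Fosb was well above background in 2 of the 4 GC-fed and 3 of the 4 control-fed channels after SDS, and Fosl1 in 2 of the 4 GC-fed and 4 of the 4 control-fed channels.

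**Figure D1:**
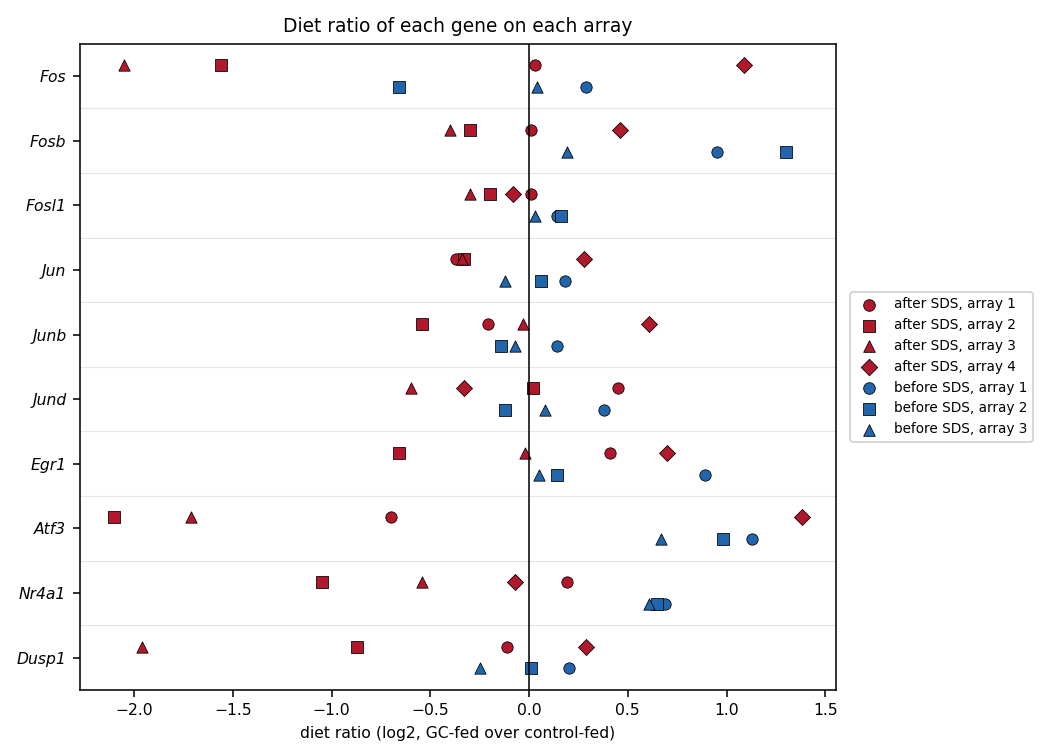
Diet ratio (log2, GC-fed over control-fed) of the 10 genes on each array, after SDS above and before SDS below in each row. The after-SDS points of Fos, Atf3 and Dusp1 span 3.14, 3.49 and 2.25 log2 units, and Atf3 and Nr4a1 lie right of 0 on all 3 before-SDS arrays.

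The spread between arrays set these genes apart in size from most others. Over the 4 after-SDS arrays the SD of the diet ratio was 1.45 for Fos, 1.56 for Atf3 and 0.99 for Dusp1, against a median of 0.21 over all genes. These SDs exceeded those of 99.6%, 99.7% and 98.7% of the genes tested. Egr1, Nr4a1, Junb and Jund had SDs of 0.59, 0.54, 0.49 and 0.45, above 93.8%, 92.3%, 89.7% and 87.9% of genes. Without array 4 the SD was 1.09 for Fos, 0.72 for Atf3 and 0.93 for Dusp1, above 99.7%, 98.8% and 99.5% of genes, against a median of 0.18. The SDs of Jun, Fosb and Junb were then 0.02, 0.21 and 0.26 instead of 0.31, 0.39 and 0.49, above 1.1%, 59.3% and 71.8% of genes. Without array 3 the Dusp1 SD was 0.59, and without array 2 the Egr1 SD was 0.36. Fosl1, with an SD of 0.14, exceeded 24.5%. Before SDS, the Fos SD of 0.49 exceeded that of 97.4% of genes and the Fosb SD of 0.57 that of 98.3%, while the Nr4a1 ratios differed by an SD of 0.04, above 8.4%.

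**Figure D2:**
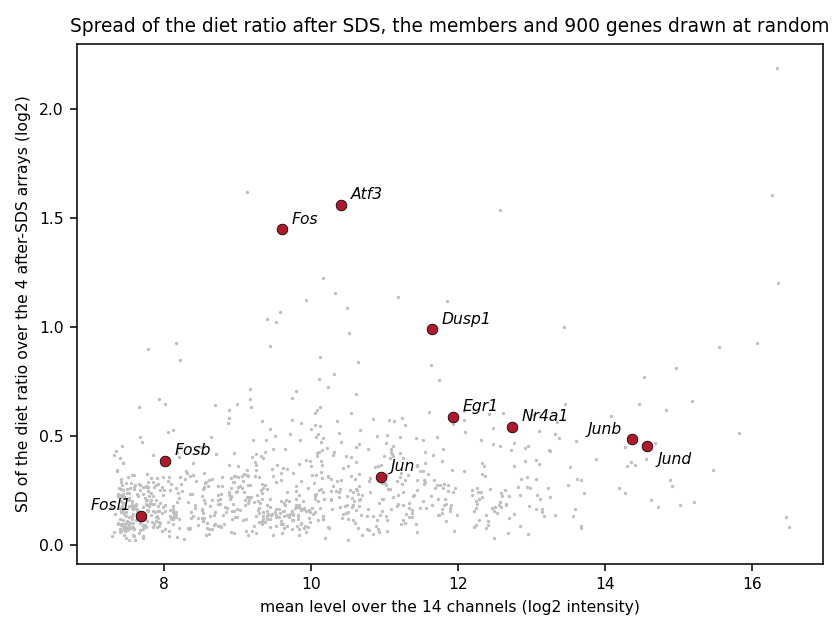
SD of the diet ratio over the 4 after-SDS arrays (log2) against the mean level over the 14 channels (log2 intensity), for the 10 members (labelled) and 900 genes drawn at random from all those tested (grey). Atf3, Fos and Dusp1 have SDs of 1.56, 1.45 and 0.99 and lie above nearly all grey points, and Fosl1, at 0.14, lies among them.

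The diet effect after SDS depended on single arrays. Without array 3 it was -0.04 for Fos, -0.27 for Atf3 and -0.19 for Dusp1, and without array 2 it was -0.22, -0.36 and -0.5 for these genes, with no member called in either case. Without array 4 it was larger. Atf3 then had a log2 diet effect of -1.56 (SE 0.24, limma adjusted p = 0.0237) and Dusp1 of -1.13 (SE 0.21, limma adjusted p = 0.0371), so that 2 of the 10 members were called, both lower, against 5.44% of all genes (1.48% higher, 3.97% lower). Fos was at -1.35 (limma adjusted p = 0.0562) and Jun at -0.36 (limma adjusted p = 0.0502), neither past the threshold of 0.05. Array 4 was singled out because its ratios oppose those of the other arrays, so leaving it out favours such calls. The SEs rest on a spread shared with the before-SDS arrays, after a dye term. They do not measure the spread of the after-SDS ratios left, whose SD was 0.72 for Atf3 and 0.93 for Dusp1. Of those arrays, only array 3 had the GC-fed sample in Cy5. With the channels of array 4 exchanged, as if its dye labels were swapped, Fos, Jun, Atf3 and Dusp1 passed, at -1.4, -0.35, -1.55 and -1.05. These 4 of the 10 members, all lower, stood against 10.9% of all genes (692 genes higher, 1172 lower). Whether the labels of array 4 are right was not tested.

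The diet ratios of marker lists of other cell types also differed between the same arrays. In whole skin, a change in the number of cells of a type and a change in RNA per cell cannot be told apart. The neutrophil list, of which 5 of 7 markers were measured (Ngp and Ltf did not pass the filter), had median diet ratios of -0.14, -1.03, -0.94 and 0.89 on after-SDS arrays 1 to 4, with 0, 1, 0 and 5 of the 5 markers above 0. The 8 macrophage markers had medians of -0.66, -0.4, -1.23 and 0.48, with all 8 above 0 on array 4 alone. The 8 suprabasal keratinocyte markers ran the other way, with medians of 1.53, 0.7, 0.72 and -0.88. Skeletal muscle markers, 7 in number, had -1.08, -0.24, -1.23 and -0.3, and the 3 erythrocyte markers measured had -0.43, -1.04, -1.23 and 0.8. The 10 hair follicle markers had -0.52, 0.29, 1.19 and -0.13. The mean neutrophil marker level per sample ranged from 9.02 to 10.51 in GC-fed and from 9.38 to 10.49 in control-fed skin after SDS, and that of the macrophage markers from 11.65 to 12.77 in GC-fed and from 12.12 to 12.85 in control-fed skin. Skeletal muscle (14.33 to 15.34 against 15.57 to 15.93), adipocyte (12.86 to 13.12 against 13.32 to 13.89) and mast cell markers (10.26 to 10.69 against 10.76 to 11.08) were lower in GC-fed skin after SDS without overlap. The ranges of all other marker lists overlapped between the diets after SDS. The part of these cell types in the members' ratios was not tested.

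**Figure D3:**
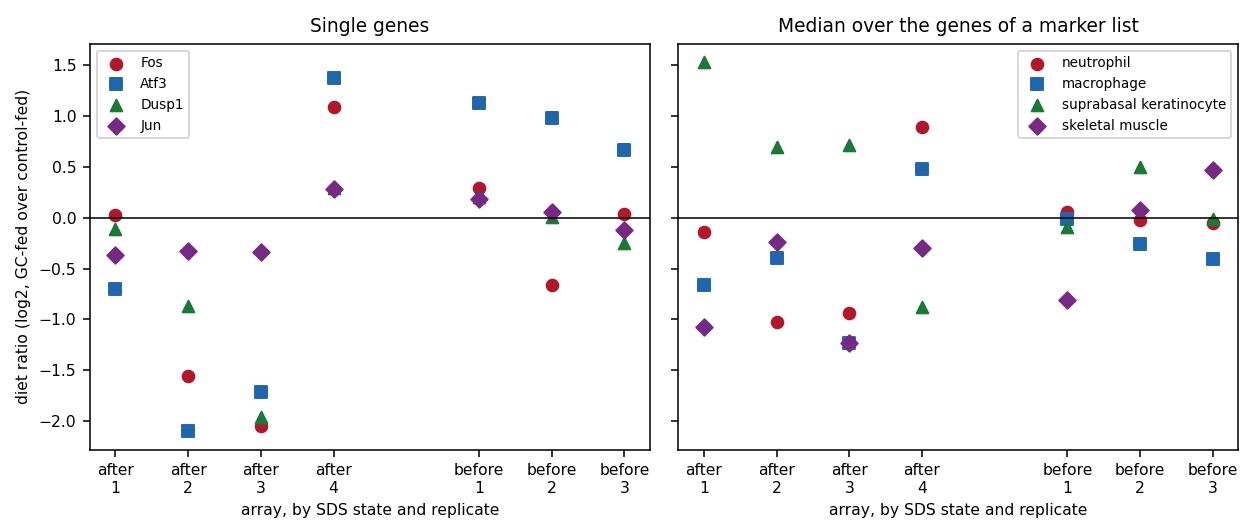
Diet ratio (log2, GC-fed over control-fed) on each array, for Fos, Atf3, Dusp1 and Jun on the left and as the median over neutrophil, macrophage, suprabasal keratinocyte and skeletal muscle markers on the right. On after-SDS array 4 the 4 genes and the neutrophil and macrophage medians are above 0, and the suprabasal keratinocyte median is at -0.88.

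By the likeness measure, Pearson's r with Fos over the 14 channel levels after the mean of each SDS state and the dye were removed, the genes most like Fos were Il6 (0.97), which encodes a cytokine, S1pr2 (0.96), a receptor for sphingosine phosphate, Kctd7 (0.95), Sel1l3 (0.95) and Zfp36 (0.95), whose protein destabilises cytokine mRNAs. Paired samples share an array, so the 14 points are not independent. Il6 had after-SDS diet ratios of -0.04, -0.6, -0.38 and 0.46, the order of signs seen for Dusp1. Among the members, r with Fos was 0.85 for Dusp1, 0.79 for Junb, 0.78 for Atf3 and 0.72 for Jun, and lowest, 0.33, for Fosb. Of 17082 genes ranked by r with Fos, Dusp1 was at rank 136, Junb at 348, Atf3 at 378 and Jun at 721.

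The start regions of Fos, Atf3 and Dusp1, the members with the largest SDs of the diet ratio after SDS, are shown. They are the 250 bases before the RefSeq start in GRCm38.p6, 5′ to 3′ on the gene's strand. Capitals mark TGACG, the core of the cyclic AMP response element, the full element TGACGTCA, the EGR site GCGGGGGCG and the TATA box TATAAA, each searched on both strands. A full element holds a core on each strand.
Fos, chr12:85473640-85473889, plus strand: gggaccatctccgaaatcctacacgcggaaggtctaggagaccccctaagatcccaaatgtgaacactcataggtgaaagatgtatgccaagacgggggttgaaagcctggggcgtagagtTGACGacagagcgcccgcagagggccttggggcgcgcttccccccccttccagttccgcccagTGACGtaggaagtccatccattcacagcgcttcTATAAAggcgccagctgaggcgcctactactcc
Atf3, chr1:191183334-191183583, minus strand: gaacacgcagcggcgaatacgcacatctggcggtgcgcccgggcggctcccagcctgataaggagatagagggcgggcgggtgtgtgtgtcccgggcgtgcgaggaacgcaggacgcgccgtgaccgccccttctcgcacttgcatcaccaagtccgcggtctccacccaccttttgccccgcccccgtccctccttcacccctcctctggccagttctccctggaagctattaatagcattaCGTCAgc
Dusp1, chr17:26508473-26508722, minus strand: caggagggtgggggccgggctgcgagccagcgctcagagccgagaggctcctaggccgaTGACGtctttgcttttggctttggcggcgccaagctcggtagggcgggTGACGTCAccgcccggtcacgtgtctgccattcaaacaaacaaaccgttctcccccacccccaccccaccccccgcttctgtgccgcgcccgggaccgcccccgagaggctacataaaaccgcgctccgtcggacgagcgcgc

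The Fos window held 2 cores and a TATA box, which began 33 bases before the start, and the Atf3 window held 1 core, on the minus strand, 7 to 3 bases before the start. The Dusp1 window held the full element, 143 to 136 bases before the start, and another core. TGACG was found in 6 of the 8 members with a window (Fos, Fosb, Junb, Atf3, Nr4a1 and Dusp1), against 17.8% of all 32851 windows of that length, but this motif was added after the sequences had been seen. The full element was in 1 of 8 (1.55% of all windows) and the TATA box in 1 of 8 (12.4%). The GC box GGGCGG, which overlaps the EGR site in Fosb and in Nr4a1, was in 6 of 8 (32.7%). The AP-1 site TGACTCA (4.46% of all windows) and the CArG box (1.47%), the binding site of serum response factor, were in none of the 8. These matches describe the letters only. Bases farther than 250 before the start were not searched, nor were Egr1 and Fosl1, which had no window. The absence of a motif here therefore does not show that a gene lacks it.

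Before SDS, 8 of the 10 members had a fitted diet effect above 0, with a median of 0.17 against 0 over all genes. Atf3, Fosb and Nr4a1 read higher in GC-fed than in control-fed skin on every array. In all, 5 members (Fosb, Fosl1, Egr1, Atf3 and Nr4a1) had all 3 ratios above 0, as did 9.29% of all genes. No member had all 3 below 0 (9.6% of all genes). Hair follicle markers differed widely between the paired samples, with median diet ratios of 1.13, -2.28 and -0.22 on before-SDS arrays 1, 2 and 3. Of the 10 markers, 10, 0 and 2 were above 0 on these arrays. Their part in the members' ratios was not tested. Fosb and Fosl1 were dim: in the authors' deposited table, 12 and 14 of their 14 channels lay at its floor of 200. By limma, no member and no other gene passed (0 of 17083, 0%; 68 genes, Fosb and Nr4a1 among them, had an unadjusted p under 0.05).

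Atf3 ratios before SDS were 1.13, 0.98 and 0.67 on arrays 1 to 3, with an SD of 0.24. Its levels were 10.97, 11.07 and 10.11 in GC-fed skin, against 9.83, 10.08 and 9.44 in control-fed skin, and the groups did not overlap, as for 2.7% of all genes in that direction and 2.93% in the other. The fitted effect was 0.82 (SE 0.6, limma adjusted p = 1; 95% interval -0.6 to 2.25). Without before-SDS array 1 it was 0.21, though the ratios of arrays 2 and 3 were 0.98 and 0.67. Array 1 was the only before-SDS array with the GC-fed sample in Cy3. Without it, the dye term of the fit came from the after-SDS arrays alone. The SE of 0.6 also holds the spread of the after-SDS ratios, because the fit shares the spread of a gene between states. In the authors' deposited table the Atf3 log2 ratio was 1.28, 1.08 and 0.92.

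Nr4a1 was the most even, with ratios of 0.69, 0.65 and 0.61 and levels of 13.29, 13.05 and 12.55 in GC-fed skin, against 12.6, 12.4 and 11.94 in control-fed skin. The groups overlapped narrowly, because the third GC-fed sample lay just under the first control-fed sample. The fitted effect was 0.64 (SE 0.22, unadjusted p = 0.0257, limma adjusted p = 1). Fosb, whose protein activates transcription with Jun partners, had ratios of 0.95, 1.3 and 0.19 and a fitted effect of 0.81 (SE 0.25, unadjusted p = 0.0143, limma adjusted p = 1). Egr1 ratios were 0.89, 0.14 and 0.05, so that array 1 carried its mean. Fos ratios were 0.29, -0.66 and 0.04, and those of Jun, Junb, Jund and Dusp1 lay between -0.25 and 0.38.

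The third comparison, whether the diet effect differed between SDS states, found no member and no other gene past the threshold by limma (0 of 17083, 0%; 207 genes, Fosb, Fosl1 and Nr4a1 among them, had an unadjusted p under 0.05). The difference, after minus before SDS, was below 0 for 9 of the 10 members, with a median of -0.42, against 0 over all genes. Nr4a1 differed by -1.01 (SE 0.29, unadjusted p = 0.0116), Atf3 by -1.61 (SE 0.78, unadjusted p = 0.0813) and Fosb by -0.87 (SE 0.32, unadjusted p = 0.0326), each with a limma adjusted p of 1. Without after-SDS array 4 the Atf3 difference was -2.54 (SE 0.36, limma adjusted p = 0.0606), and 0 members were called, against 0.328% of all genes (0.0117% higher, 0.316% lower). With its channels exchanged it was -2.53 (limma adjusted p = 0.0187), and 0.726% of all genes were called. It was -0.99 without before-SDS array 1 and likewise -0.99 without after-SDS array 3, with limma adjusted p-values of 0.998 and 1.

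**Figure D4:**
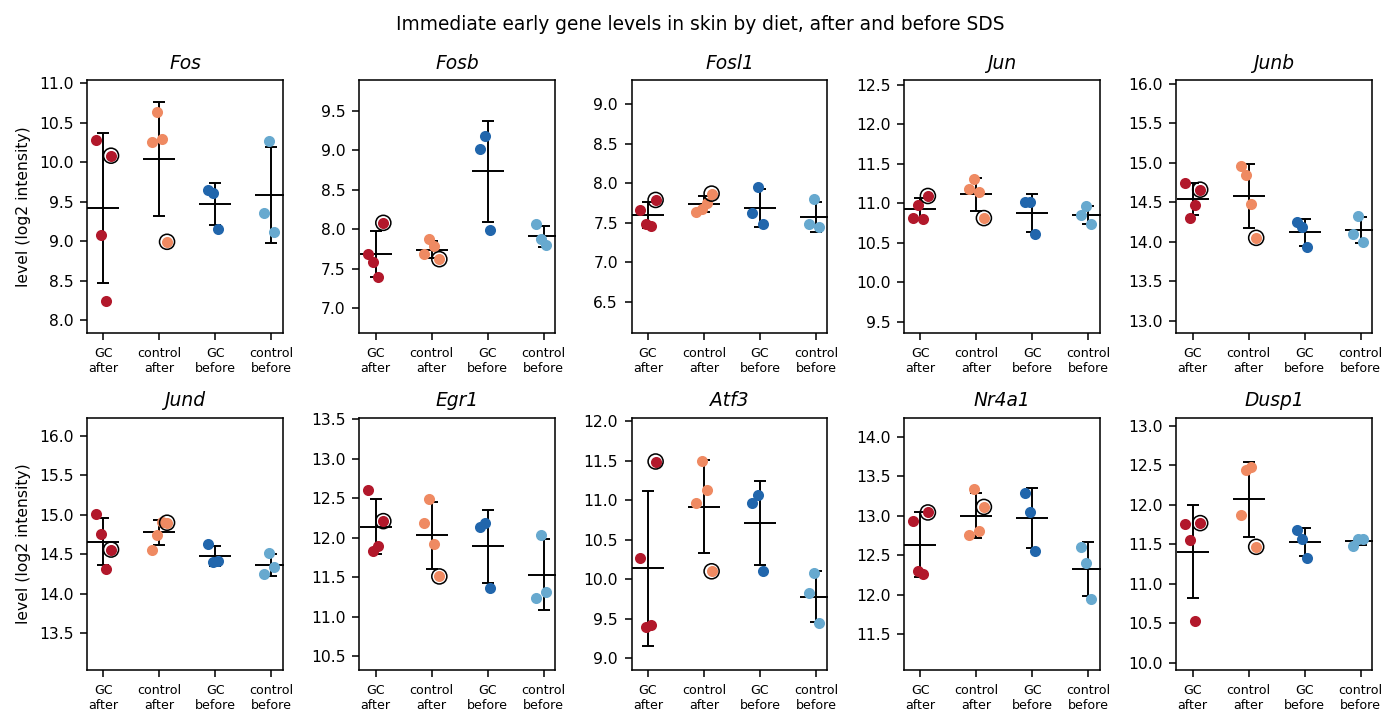
Level (log2 intensity) of each gene in every sample of the 4 groups, with the mean and SD as black bars and the samples of after-SDS array 4 ringed. Fosb is high in 2 of the 3 GC-fed samples before SDS, and the control-fed Atf3, Nr4a1 and Jund levels after SDS lie above all control-fed levels before SDS.

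SDS exposure was compared within each diet. In GC-fed skin Fosb was lower after SDS than before it, and no other member passed. In control-fed skin Jund was higher after SDS, by 1.37-fold, and no other member passed. The members called, 1 of 10 in each diet, stood against 13.5% of all genes in GC-fed skin (6.36% higher, 7.1% lower) and 14.9% in control-fed skin (6.88% higher, 8.02% lower), so their share was near the background.

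Fosb stood at 7.69, 7.58, 7.39 and 8.08 in GC-fed skin after SDS, against 9.01, 9.18 and 7.99 before SDS. The before-SDS values were high in arrays 1 and 2, and the third overlapped the after-SDS range. Fosb fell by 1.04 on the log2 scale (SE 0.24, limma adjusted p = 0.0176; 95% interval -1.56 to -0.52). In control-fed skin Fosb levels were 7.68, 7.88, 7.79 and 7.62 after SDS, against 8.06, 7.88 and 7.8 before it, a difference of -0.17 (SE 0.24, limma adjusted p = 0.656). Fosb was well above background in 2 of 4 GC-fed samples after SDS and 3 of 3 before. The call was lost without before-SDS array 1 (limma adjusted p = 0.0971), before-SDS array 2 (0.0981) or after-SDS array 3 (0.0746), and with the scanner software's processed signals the difference was -2.17, so the size of the fall of this dim gene is uncertain.

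Jund stood at 14.56, 14.75, 14.91 and 14.9 in control-fed skin after SDS, against 14.25, 14.52 and 14.34 before SDS. All 4 values after SDS lay above the 3 before it, as for 14.9% of all genes in that direction. Jund rose by 0.46 (SE 0.09, limma adjusted p = 0.00932; 95% interval 0.25 to 0.66). In GC-fed skin Jund levels were 15.01, 14.76, 14.31 and 14.56 after SDS, against 14.63, 14.4 and 14.42 before it, a difference of 0.13 (SE 0.09, limma adjusted p = 0.374). The control-fed call was lost without before-SDS array 1 (limma adjusted p = 0.0686) or 3 (0.0572) and without a dye term (0.0602). The Jund dye term was -0.29 (unadjusted p = 0.0073), the red channel over the green.

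The start regions of Fosb and Jund, the members that passed, are set beside each other with the same marks.
Fosb, chr7:19310046-19310295, minus strand: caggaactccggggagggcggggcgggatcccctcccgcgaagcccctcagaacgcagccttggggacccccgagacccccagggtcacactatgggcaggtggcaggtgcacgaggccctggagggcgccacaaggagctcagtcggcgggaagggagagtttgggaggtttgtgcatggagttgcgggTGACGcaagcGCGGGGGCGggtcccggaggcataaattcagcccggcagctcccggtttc
Jund, chr8:70697489-70697738, plus strand: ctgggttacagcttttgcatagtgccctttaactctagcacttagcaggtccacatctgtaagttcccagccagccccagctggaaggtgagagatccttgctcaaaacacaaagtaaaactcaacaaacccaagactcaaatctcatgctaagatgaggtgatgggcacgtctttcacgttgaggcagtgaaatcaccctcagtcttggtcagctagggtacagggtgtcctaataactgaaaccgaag

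The Fosb window held an EGR site 50 to 42 bases before the start and 1 core, and the Jund window held none of the motifs searched. The EGR site was found in Fosb and Nr4a1, 2 of the 8 windows, against 2.57% of all windows.

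Of the other members, Atf3 stood at 10.96, 11.5, 11.13 and 10.1 in control-fed skin after SDS, against 9.83, 10.08 and 9.44 before it, and the groups did not overlap. The difference was 1.09 (SE 0.46, limma adjusted p = 0.125). In GC-fed skin the Atf3 difference was -0.52 (SE 0.46, limma adjusted p = 0.486). Nr4a1 stood at 12.75, 13.34, 12.8 and 13.11 in control-fed skin after SDS, against 12.6, 12.4 and 11.94 before it, again without overlap (14.9% of all genes lay higher without overlap in control-fed skin), and differed by 0.68 (SE 0.25, limma adjusted p = 0.0838). Junb in GC-fed skin was 14.75, 14.3, 14.46 and 14.66 after SDS, against 14.25, 14.19 and 13.93 before it, without overlap, as for 11.5% of all genes in that direction. It differed by 0.44 (SE 0.18, limma adjusted p = 0.13), and by 0.61 on the second probe (adjusted p = 0.0648 over all probes).

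Over the 10 members, the SDS difference was above 0 for 4 in GC-fed skin, with a median of -0.08, and for 9 in control-fed skin, with a median of 0.46, against a median of 0 over all genes in each diet. The gap between these comparisons is the difference of diet effects given above, which no member passed. Without after-SDS array 4, Jun, Junb, Jund, Atf3 and Dusp1 passed in control-fed skin, 5 of 10 and all higher, against 21.2% of all genes (11% higher, 10.2% lower). Atf3 was then at 1.46 (limma adjusted p = 0.00759) and Dusp1 at 0.87 (limma adjusted p = 0.0184). The control-fed sample of array 4 was the lowest after SDS for Jun, Junb, Atf3 and Dusp1, though not for Jund. Leaving it out therefore raises those differences. In GC-fed skin Fosb and Atf3 passed without that array, both lower, at -1.17 and -1.07, against 15.6% of all genes (7.36% higher, 8.21% lower). The GC-fed sample of that array was the highest after SDS for both genes, so leaving it out lowers their differences.

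**Figure D5:**
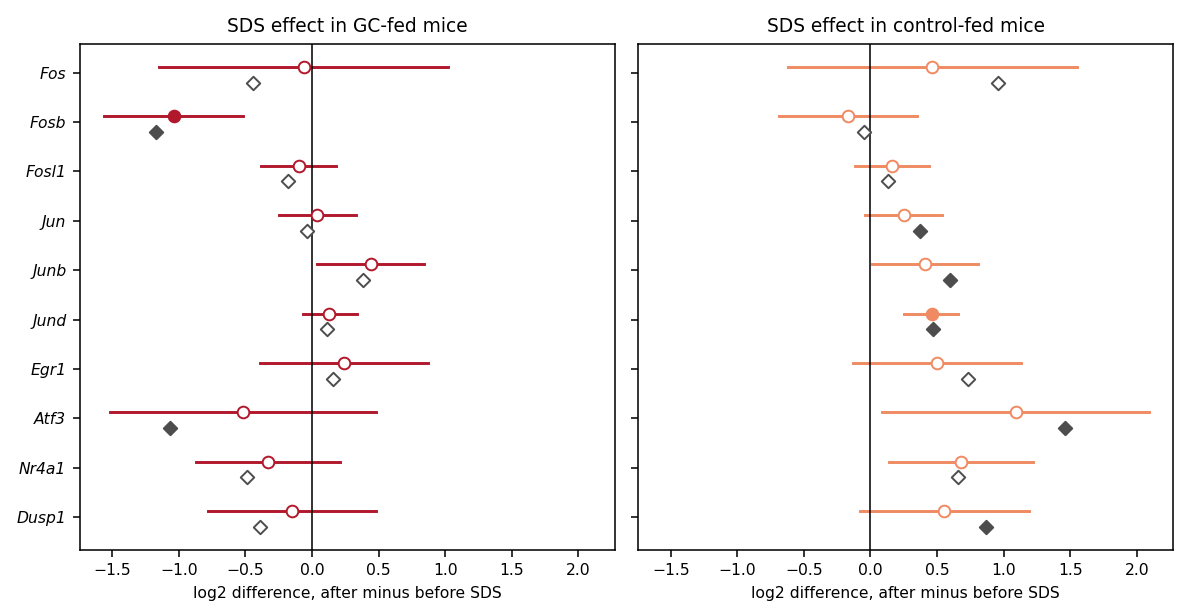
SDS effect (log2 difference, after minus before SDS) in GC-fed mice on the left and control-fed mice on the right. Circles give the value with its 95% interval over all arrays, diamonds the value without after-SDS array 4, and filled symbols passed an adjusted p of 0.05: Fosb at -1.04 on the left and Jund at 0.46 on the right over all arrays.

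The other genes of the pathway were read from lists of related genes. For the diet comparisons 0 of their genes passed, and for SDS some passed in each list, against 13.5% of all genes in GC-fed skin (6.36% higher, 7.1% lower) and 14.9% in control-fed skin (6.88% higher, 8.02% lower). Of 43 other immediate early genes tested, 3 rose in GC-fed skin (Myc, Cebpb and Klf10) and 3 rose in control-fed skin (Cebpb, Myc and Ptgs2), against 6.36% and 6.88% of all genes that rose in these diets. Myc, a growth regulator, averaged 11.59 ± 0.13 after SDS and 11.2 ± 0.05 before it in GC-fed skin (SD, n = 4 and 3), and its rises were 0.39 (limma adjusted p = 0.011) in GC-fed and 0.41 (0.00686) in control-fed skin. Ptgs2, an enzyme of prostaglandin synthesis, rose by 0.39 in control-fed skin (limma adjusted p = 0.0164), against 0.28 in GC-fed skin (0.0595). Klf10 rose by 0.43 in GC-fed skin (limma adjusted p = 0.0333), against 0.32 in control-fed skin (0.0885).

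Among 19 other AP-1 family members and leucine zipper partners, 1 rose and 2 fell in GC-fed skin, and 2 rose and 1 fell in control-fed skin, near the 13.5% and 14.9% of all genes called. Ddit3, a stress factor of the unfolded protein response, fell by 0.55 in GC-fed (limma adjusted p = 0.00426) and 0.54 in control-fed skin (0.00293). Batf2 rose by 0.45 in GC-fed and 0.49 in control-fed skin. Jdp2, which encodes a repressor that pairs with Jun proteins, fell by 0.42 in GC-fed skin. Its difference in control-fed skin was -0.19 (limma adjusted p = 0.26). Maff rose by 0.22 in control-fed skin, against 0.1 in GC-fed skin (limma adjusted p = 0.349).

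Of 27 genes of the serum response factor and MAP kinase pathway, 2 rose and 5 fell in GC-fed skin, and 2 rose and 6 fell in control-fed skin, against 7.1% and 8.02% of all genes that fell. Rps6ka3, a kinase downstream of ERK, rose by 0.49 in GC-fed and 0.57 in control-fed skin. Map2k7, a kinase that activates JNK, fell by 0.33 in GC-fed and 0.34 in control-fed skin, and Map2k3, which activates p38, by 0.4 in GC-fed and 0.42 in control-fed skin. Map2k4 fell by 0.31 in GC-fed and 0.43 in control-fed skin.

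Of 10 other dual-specificity phosphatases, relatives of Dusp1, 4 rose and 1 fell in GC-fed skin, and 3 rose and 1 fell in control-fed skin, against 13.5% and 14.9% of all genes called. Dusp2 averaged 11.77 ± 0.34 after SDS and 10.47 ± 0.37 before it in GC-fed skin (SD, n = 4 and 3), a rise of 1.32 (limma adjusted p = 0.0189). In control-fed skin it differed by 0.82 (limma adjusted p = 0.0936). Dusp6, which acts on ERK, averaged 14.49 ± 0.17 after SDS and 13.77 ± 0.27 before it in control-fed skin (SD, n = 4 and 3), a rise of 0.72 (limma adjusted p = 0.0141). In GC-fed skin it rose by 0.61 (limma adjusted p = 0.0302). Dusp10 rose by 0.47 in GC-fed and 0.4 in control-fed skin, and Dusp3 by 0.52 in GC-fed and 0.53 in control-fed skin. Dusp16 fell by 0.41 in GC-fed and 0.53 in control-fed skin.

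Of 21 known AP-1 target genes, 2 rose in GC-fed skin and 3 in control-fed skin, and none fell, near the 13.5% and 14.9% of all genes called. Their median SDS difference was 0.35 in GC-fed and 0.32 in control-fed skin, against 0 over all genes. Odc1, the first enzyme of polyamine synthesis, rose by 0.44 in GC-fed and 0.56 in control-fed skin, and Vegfa, a growth factor for blood vessels, by 0.33 in GC-fed and 0.27 in control-fed skin. Plaur, the urokinase receptor, rose by 1.29 in control-fed skin (SE 0.37, limma adjusted p = 0.0375), against 0.68 in GC-fed skin (SE 0.37, limma adjusted p = 0.242).

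Of 16 heat shock genes, 5 fell in GC-fed skin, and 2 rose and 5 fell in control-fed skin, against 7.1% and 8.02% of all genes that fell. Cryab, a small heat shock protein gene, fell by 0.85 in GC-fed skin (limma adjusted p = 0.00426) and 0.6 in control-fed skin (0.00931). Hsf1, the main heat shock factor, fell by 0.39 in GC-fed and 0.42 in control-fed skin, and Hspa1a by 0.43 in GC-fed and 0.47 in control-fed skin. Hspb1 fell by 0.4 in GC-fed and 0.66 in control-fed skin, and Hspa8 by 0.41 in GC-fed and 0.5 in control-fed skin. In control-fed skin Hsph1 rose by 0.43 and Chordc1 by 0.32. Their differences in GC-fed skin were 0.25 and 0.23 (limma adjusted p = 0.176 and 0.0931). Hair follicle markers were higher after SDS in the same samples, 10 of 10 above 0 in each diet. Their median differences were 1.37 in GC-fed and 0.81 in control-fed skin. Of them 6 passed in GC-fed and 3 in control-fed skin, against 6.36% and 6.88% of all genes that rose. Their part in the SDS differences was not tested.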

How the data were processed

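RNA of dorsal skin was measured on 7 two-colour Agilent arrays, with a GC-fed and a control-fed sample on each, and grouped by the labels into 4 diet and SDS groups. Per the file headers, the intensity of each spot and channel and the spot flags in the authors' scanner files came from Agilent Feature Extraction 9.1.3.1. Besides these, the authors' deposited gene-level table holds intensity, with a floor of 200, and a log2 ratio, which equals log2 of GC-fed over control-fed intensity. It served as an alternative and held 8 of the members after its filter.

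The members and gene lists were chosen with earlier results of these data known. Mean signal was corrected with limma 3.58.1 (R 4.3.3; normexp, offset 50) and loess-normalized within arrays, giving weight 0 to control spots, which were later removed together with outlier spots. Levels came from Aquantile normalization between arrays. Of the 41174 probes, 77 with a missing array were dropped. The brightest probe stood for a gene, and 17083 genes passed the filter. Diet effects came from limma's fit to the log2 ratios of 7 arrays with a dye term (residual df 4), and SDS effects from its separate-channel fit of 14 channels (residual df 9, correlation within spots -0.0018). The Benjamini-Hochberg method adjusted p-values over all genes (threshold 0.05). These p-values measure the spread between these samples, which each fit estimated per gene over all arrays. An SE or interval for a diet or SDS state is thus not the spread of its own arrays alone. The number of arrays limits precision.

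All 10 members were named; from each of 6 pathway lists up to 3 genes per direction with the smallest p among those that passed, and the 5 genes most like Fos by Pearson's r, were named too; some genes that met this rule are not reported here. Another 13 lists held cell type markers. Alternatives covered signals, normalization, filter, dye term, probe rule, left-out arrays, exchanged channels, a replicate block and the deposited table. Both fits were tested on simulated data. Promoter sequences are from RefSeq (GRCm38.p6), which held 8 of the 10 members. Figures used matplotlib.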

Additional observations from a re-analysis of the deposited data

Results flagged for a closer look

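Of 30 sets of 4 after-SDS values examined (3 for each member), 2 held a sample far from the other 3, by Dixon's ratio of gap to range at the 95% level. Chance marks about 1 set in 20. The Jun diet ratio of after-SDS array 4 was 0.28, against -0.37 to -0.33 on the other arrays. The Dusp1 level of the GC-fed sample on after-SDS array 3 was 10.53, against 11.56 to 11.77 in the other GC-fed samples. The cause was not tested for either.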

How the results depend on the processing

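Under 16 alternatives, 701 of 760 member values kept their direction and their side of the threshold, 6 lost a call, 17 gained one and 36 turned sign. With the channels of after-SDS array 4 exchanged, the diet effect after SDS called 1864 genes (10.9% of all) and 4 members. The difference of diet effects called 124 genes (0.726%) and 1 member. The SDS effect called 3225 genes (18.9%) and 2 members in GC-fed skin, and 4356 genes (25.5%) and 5 members in control-fed skin. In that setting Egr1 turned to -0.3 (diet after SDS), Fos to 0.04 (diet before SDS), Junb to -0.28 (difference) and Jun to -0.06 (SDS, GC-fed). Without a dye term, Dusp1 before SDS was -0.01, the Junb difference -0.02, and 0 members were called for SDS in control-fed skin, where Jund was at 0.41. Median centring gave a Junb difference of -0.05 and called 1150 (GC-fed) and 1146 (control-fed) genes for SDS, and the processed signals called 1200 in GC-fed skin. The authors' deposited table called 1003 genes and 0 members in GC-fed skin (Fosb was not among its members used), 1569 genes in control-fed skin, and put Jund at -0.03 in GC-fed skin. The cause was not tested.

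Leaving out each array in turn, the diet effect after SDS called 0 to 930 genes and 0 to 2 members, the difference of diet effects 0 to 56 genes, the SDS effect in GC-fed skin 503 to 2661 genes and 0 to 2 members, and that in control-fed skin 109 to 3624 genes and 0 to 5 members. Over these fits the diet effect after SDS ran from -0.27 to 0.09 for Fosb, -0.25 to 0.11 for Junb, -0.15 to 0.43 for Egr1, -1.35 to -0.04 for Fos, -1.56 to -0.27 for Atf3 and -1.13 to -0.19 for Dusp1. Before SDS it ran from -0.45 to 0.17 for Fos, -0.19 to 0.12 for Jun, -0.44 to 0.04 for Junb, -0.14 to 0.52 for Egr1, -0.05 to 0.14 for Dusp1 and 0.21 to 1.06 for Atf3. The difference of diet effects ran from -1.4 to 0.17 for Fos, -0.22 to 0.4 for Junb, -0.57 to 0.24 for Egr1 and -2.54 to -0.99 for Atf3. The spread of the ratios without single arrays was chosen after seeing the data. The SDS effect in GC-fed skin ran from -0.44 to 0.43 for Fos, -0.2 to 0.02 for Fosl1, -0.1 to 0.18 for Jun, -0.02 to 0.48 for Egr1 and -0.39 to 0.21 for Dusp1.

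Deviations of same-numbered arrays correlated at r = -0.09, -0.04 and 0.19. These few values cannot decide whether the replicate numbers pair the samples. With the replicate block, 2 genes were called for diet after SDS, 1356 for SDS in GC-fed skin and 1536 in control-fed skin, and the Junb difference was -0.15. A slide block was not run, because each slide held 1 SDS state. Signal over background limits Fosb and Fosl1, read well above background in 10 and 11 of the 14 channels.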
